A study of Mus musculus with 6 samples.

Results

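The set described here holds the p53-induced genes Mdm2, Cdkn1a, Ccng1, Gdf15, Btg2, Trp53inp1, Zmat3, Phlda3, Aen and Sesn2. They were taken by name, with every probe that carries one of their RefSeq transcripts, and they make up 10 of the 20659 genes with a symbol on the array. The 10 genes have 13 probes, and all 10 passed the filter on dim probes and were tested among 14474 genes and unnamed targets. The levels were measured on 6 single-colour Agilent arrays hybridized with spleen RNA of male ICR mice, an outbred strain, aged 8 weeks at the start.

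Both groups received cyclophosphamide at 40 mg/kg for 5 days, an alkylating drug that damages DNA and kills dividing cells such as lymphocytes. The MOD group (arrays 1, 2 and 3) is the cyclophosphamide model, and the labels place it at day 5. The SA-H group (arrays 4, 5 and 6) also received schisandrol A (SA), a lignan of Schisandra fruit, at 1000 mg/kg per day, and the labels place it at day 28. The labelled day and the treatment cannot be told apart, although by the protocol in the same labels the model animals received water by mouth while the others were treated, and the methods of the paper give another dose and duration for SA. No array of mice without cyclophosphamide was analysed here, so the induction of these genes by the drug was not measured, and each change below is SA-H minus MOD. The sources do not say whether each array is a separate mouse, so the p-values cover the spread between these samples only, which may be technical. Levels are log2 signals relative to the 75th percentile of the array and are not compared between probes.

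The transcription factor p53 is held at a low level by the ubiquitin ligase Mdm2 and accumulates when DNA is damaged. It then switches on genes that halt the cell cycle, repair DNA, remove reactive oxygen or kill the cell, and among them Mdm2 itself, which closes a feedback loop. Lymphocytes are among the cells most prone to p53-dependent death after DNA damage. In a whole spleen, fewer cells of a type and less RNA per cell cannot be told apart.

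p53 binds DNA as a tetramer, at an element made of a pair of p53 half-sites of 10 bases. The stretches below are those in which the 250 bases before a RefSeq start of one of the 10 genes hold a half-site without a mismatch, found on the reference sequence (RefSeq, GRCm38.p6) and not measured on these arrays. The half-site reads as itself on the other strand, so both strands were searched together. The capitals mark half-sites without a mismatch and any element that holds them, with 1 mismatch allowed in an element and a spacer of 0 to 13 bases.
Cdkn1a, chr17:29090896-29090957, plus strand: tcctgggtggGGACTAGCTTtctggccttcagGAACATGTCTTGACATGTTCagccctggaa
Ccng1, chr11:40755452-40755491, minus strand: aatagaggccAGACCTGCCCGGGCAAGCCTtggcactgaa
Mdm2, chr10:117710925-117710954, minus strand: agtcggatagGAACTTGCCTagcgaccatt
Aen, chr7:78895927-78895956, plus strand: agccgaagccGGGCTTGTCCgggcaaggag
Of the 8 genes with a promoter sequence in the table used, 4 held such a half-site, against 8.20% of all 27025 genes with a sequence. Cdkn1a and Ccng1 held an element, against 0.577% of all genes. In Cdkn1a the capitals lie 73 to 32 bases before the upstream start (29090979), and a second start of the gene lies at 29093769; its 2 elements share the half-site GAACATGTCT. In Ccng1 they lie 195 to 176 bases before the start, with no spacer and 1 mismatch. The stretch of Aen begins at the other start of that gene. A match is a description of the letters, and the absence of one in this window says nothing about binding elsewhere. No stretch of Trp53inp1 or Zmat3 is shown.

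The p53-induced genes did not move together between the groups. At an unadjusted p under 0.05 (limma), Gdf15 was higher in the SA-H group and Btg2 and Trp53inp1 were lower, which is 1 of 10 higher against 10.8% of all tested genes and 2 of 10 lower against 12.5%. The member counts were thus near those of all genes. Only Gdf15 also reached a fold change of 2, against 7.74% of tested genes higher and 5.03% lower at that limit. The adjusted p was above 0.05 for all 10 genes, as it was for all tested genes (0.0%, smallest value 0.0712). The median change was 0.17 for the 10 genes and -0.04 for all tested genes. Scaling by the array medians lowered every change by 0.32, and it left the 10 genes 0.21 above the median of all genes, as before. It moved the share of higher genes among those with an unadjusted p under 0.05 from 46.2% to 31.0%, and that share was 37.6% in the methods' ANOVA, 56.8% when scan day was a block and 60.3% without a filter. The groups did not overlap in 5 of the 10 genes. Mdm2 and Gdf15 were higher on every SA-H array than on every MOD array (11.9% of tested genes), and Ccng1, Btg2 and Trp53inp1 were lower (20.7%).

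**Figure D1:**
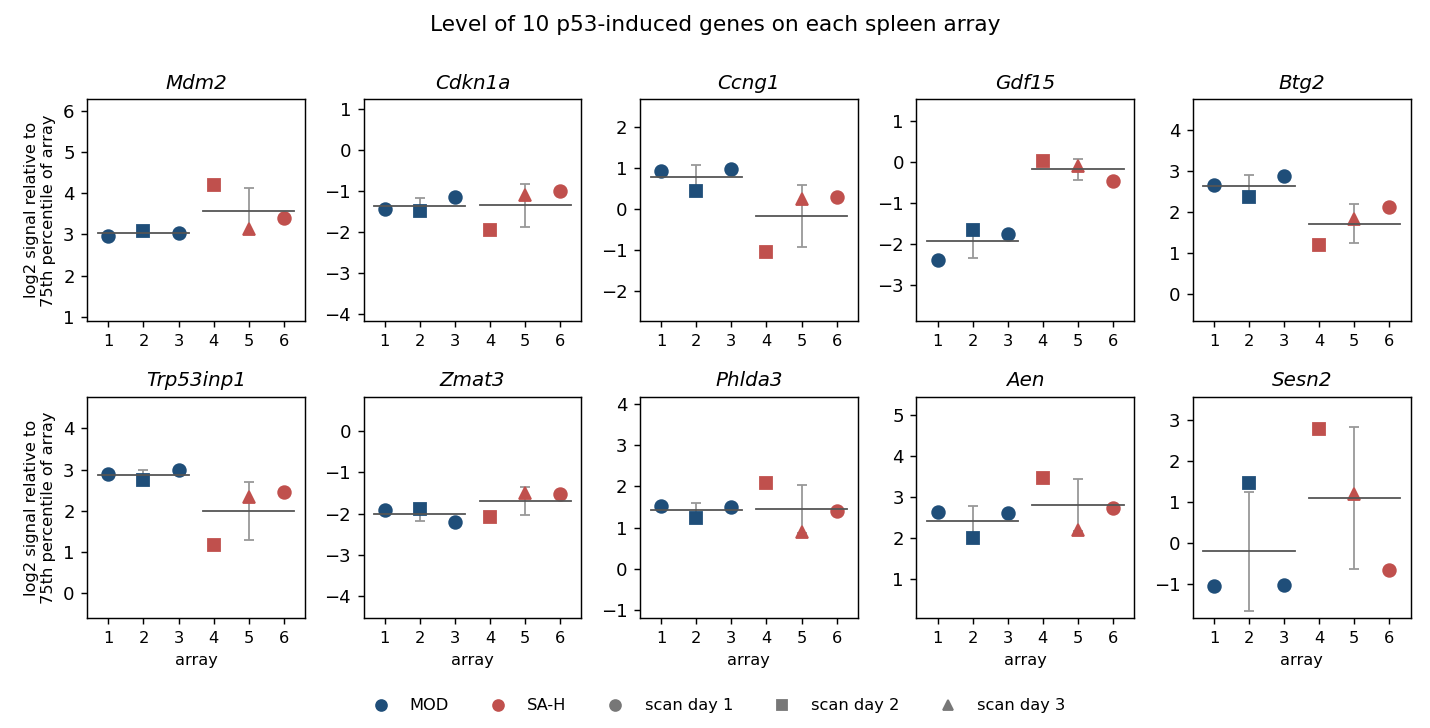
Log2 level of each p53-induced gene (y axis, relative to the 75th percentile of the array, all panels spanning the same range) on MOD arrays 1, 2 and 3 and SA-H arrays 4, 5 and 6 (x axis); colour gives the group, symbol shape the scan day, lines the mean of 3 arrays and bars the SD. Gdf15 lies higher on all SA-H arrays, Btg2 and Trp53inp1 lie lower, and Sesn2 follows the scan day.

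The arrays differed in ways that touch these values. The 75th percentile of the signal ranged from 220 on SA-H array 4 to 868 on SA-H array 5, and 43.1% to 73.9% of spots were well above background. The first scan day held MOD 1, MOD 3 and SA-H 6, the second MOD 2 and SA-H 4, and the third SA-H 5 alone, and the slides were scanned in 4 runs. SA-H array 4 was the highest or the lowest array for 9 of the 10 genes (Zmat3 was the exception), and for 65.0% of all tested genes. For this reason the changes are also given without SA-H array 4 and within the first and second scan days. The first-day value is SA-H array 6 minus the mean of MOD arrays 1 and 3. The second-day value is SA-H array 4 minus MOD array 2, so it carries SA-H array 4 in full.

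Among the secreted products of p53, Gdf15 showed the largest change of the set. It encodes a stress-induced cytokine of the TGF-beta superfamily and is also a target of the integrated stress response. Its level was -2.39, -1.66 and -1.74 in MOD (arrays 1, 2 and 3, in this order throughout) and 0.03, -0.10 and -0.47 in SA-H (arrays 4, 5 and 6). All 3 SA-H arrays lay above all 3 MOD arrays, with a gap wider than the spread within either group. The change was 1.75 on the log2 scale, or 3.36-fold (standard error 0.29, 95% interval 1.07 to 2.43, adjusted p = 0.0762, limma). It was 1.59 and 1.69 within the scan days and 1.64 without SA-H array 4. In every fit that left out 1 array it was between 1.52 and 1.89 and kept an unadjusted p under 0.05.

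Btg2 and Trp53inp1, both antiproliferative, lay lower. Btg2 encodes a cofactor of mRNA deadenylation that slows the cell cycle of lymphocytes and other cells, and it is also induced early after mitogens. Its level was 2.64, 2.36 and 2.88 in MOD and 1.19, 1.82 and 2.12 in SA-H. The groups did not overlap, and SA-H array 4 was the lowest. The change was -0.92 (standard error 0.31, 95% interval -1.65 to -0.19, adjusted p = 0.154, limma). It was -0.64 and -1.18 within the scan days and -0.66 without SA-H array 4. Its unadjusted p was above 0.05 without MOD array 1 (change -0.91) and without MOD array 3 (-0.79).

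Trp53inp1 encodes a protein of autophagy and cell death that also favours p53 activity. Its level was 2.90, 2.74 and 2.98 in MOD and 1.16, 2.33 and 2.45 in SA-H. The MOD arrays lay close together, all of them above the SA-H arrays, of which array 4 was far below the others. The change was -0.89 (standard error 0.37, 95% interval -1.77 to -0.01, adjusted p = 0.209, limma). Leaving out SA-H array 4 brought it to -0.48, which did not pass, and it was -0.49 and -1.58 within the scan days. It did not pass either without MOD array 1 (-0.88), 2 (-0.96) or 3 (-0.84), after quantile normalization (-0.82), without a filter or in the methods' ANOVA, so that leaving out any array but SA-H 5 or 6 ended the call. A second, dimmer probe of Trp53inp1 was well above background on 3 arrays only and was not tested.

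Ccng1 encodes cyclin G1, a partner of the phosphatase PP2A that acts on Mdm2. Its level was 0.94, 0.45 and 0.98 in MOD and -1.04, 0.25 and 0.31 in SA-H. The groups did not overlap, but MOD array 2 lay close to SA-H arrays 5 and 6, and SA-H array 4 stood apart. The change was -0.95 (standard error 0.41, 95% interval -1.91 to 0.01, adjusted p = 0.217, limma), and its unadjusted p lay just above 0.05. It was -0.51 without SA-H array 4 and -0.65 and -1.49 within the scan days. It passed in 7 of the 20 other settings with a test. These were the fits without MOD array 2 (-1.12), SA-H array 5 (-1.15) or SA-H array 6 (-1.18), with median scaling (-1.27), when slide scan was a random block (-1.03), with only probes bright on all 6 arrays tested (-0.95), and when scan day was a block (-1.01), a fit in which SA-H array 5 carries no weight for the groups.

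Cdkn1a encodes p21, the inhibitor of cyclin-dependent kinases through which p53 halts the cell cycle. Its level, a mean of 10 spots of 1 probe, was -1.45, -1.50 and -1.15 in MOD and -1.96, -1.10 and -0.99 in SA-H. The SA-H arrays lay on both sides of the MOD arrays. The change was 0.01, and its 95% interval ran from -0.73 to 0.76 (adjusted p = 0.980, limma). It was 0.30 and -0.46 within the scan days, and 0.32 without SA-H array 4. A second probe, for another transcript of Cdkn1a, was well above background on 2 arrays only and was not tested.

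Mdm2 encodes the ubiquitin ligase that marks p53 for breakdown. Its level was 2.97, 3.08 and 3.05 in MOD and 4.20, 3.14 and 3.39 in SA-H. The MOD arrays lay close together, and SA-H array 5 lay just above them. The change was 0.55 (standard error 0.32, 95% interval -0.20 to 1.29, adjusted p = 0.324, limma). Without SA-H array 4 it was 0.23, and it was 0.39 and 1.12 within the scan days. It passed an unadjusted p of 0.05 after quantile normalization (0.52) and when scan day was a block (0.70).

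**Figure D2:**
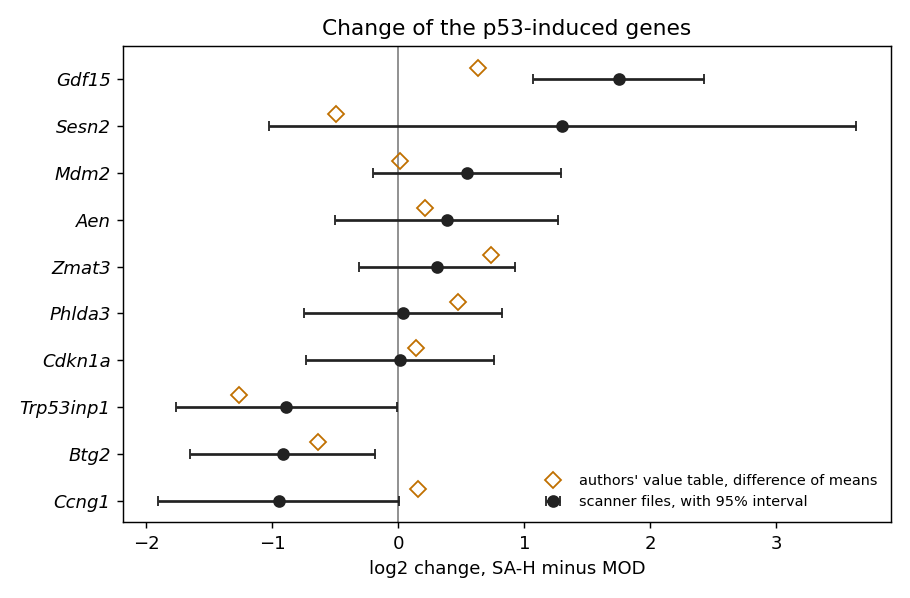
Log2 change of each p53-induced gene, SA-H minus MOD (x axis), from the scanner files (dots, with 95% intervals from limma over 6 arrays) and as the difference of the column means of the authors' value table (diamonds). The intervals of Gdf15 (1.07 to 2.43), Btg2 and Trp53inp1 leave out 0, and the 2 sources have opposite signs for Ccng1 and Sesn2.

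The remaining genes act in cell death, RNA binding and growth signaling, and none of them passed the test. Zmat3 encodes an RNA-binding zinc finger protein. Its level was -1.91, -1.88 and -2.21 in MOD and -2.08, -1.50 and -1.51 in SA-H. SA-H arrays 5 and 6 lay above all MOD arrays and SA-H array 4 did not, so the groups overlap. The change was 0.30 (95% interval -0.32 to 0.92, adjusted p = 0.493, limma), with 0.55 and -0.20 within the scan days and 0.50 without SA-H array 4.

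Phlda3 encodes a protein that holds back the kinase Akt at the membrane. Its level was 1.53, 1.23 and 1.49 in MOD and 2.07, 0.90 and 1.40 in SA-H. The highest and the lowest array were both of the SA-H group. The change was 0.04 (95% interval -0.75 to 0.83, adjusted p = 0.951, limma), and it was -0.11 and 0.84 within the scan days and -0.27 without SA-H array 4.

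Aen encodes an exonuclease that digests DNA during cell death. Its level was 2.63, 2.01 and 2.61 in MOD and 3.47, 2.20 and 2.74 in SA-H. The groups overlap, and SA-H array 4 was the highest. The change was 0.38 (95% interval -0.50 to 1.27, adjusted p = 0.544, limma), and it was 0.11 and 1.46 within the scan days and 0.05 without SA-H array 4. A second tested probe of the same transcript gave 0.23 (standard error 0.44), with the highest value again on SA-H array 4.

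Sesn2 encodes a sestrin, an antioxidant protein that restrains mTORC1, and it is also a target of Atf4. Its level was -1.05, 1.47 and -1.02 in MOD and 2.78, 1.20 and -0.66 in SA-H. It was low on the 3 arrays of the first scan day and high on the 3 arrays of the later days, whatever their group, with a gap of 1.86 between them. The change between the groups was 1.30 (standard error 0.99, 95% interval -1.03 to 3.63, adjusted p = 0.439, limma), and it was 0.37 and 1.31 within the scan days and 0.46 without SA-H array 4. It passed an unadjusted p of 0.05 without MOD array 2 (2.14) or SA-H array 6 (2.19), and when scan day was a block (0.77). Sesn2 was the only one of the 10 genes without overlap between the first and the later days, which held for 18.5% of tested genes, and a gap as wide was found in 72 of them (0.497%). What separates the scan days was not tested.

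The 10 genes also differed in how far they spread over the 6 arrays. The distance between the highest and the lowest array was largest for Sesn2 (3.83), followed by Gdf15 (2.41), Ccng1 (2.02), Trp53inp1 (1.82) and Btg2 (1.69). It was smallest for Zmat3 (0.71) and Cdkn1a (0.96).

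The deposited value table of the authors gave another picture for part of the set. Its columns did not track the scanner files: after each probe was centred on its mean, a column matched its own array best in 3 of 6 cases, and the group differences of the 2 sources correlated with r = 0.312 across 13892 probes, which are not independent. Its columns also depend on each other. The column of MOD array 2 lay between the other MOD columns for 81.9% of probes, against 26.4% in the scanner files, and for 10 of the 10 genes. The column of SA-H array 6 lay between the other SA-H columns for 76.9% of probes, against 46.1%, and for 9 of the 10 genes. The table was therefore not used for calls.

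Btg2 and Trp53inp1 lay lower in the SA-H columns of that table too. Trp53inp1 was at 11.80, 11.90 and 11.97 in the MOD columns and at 10.72, 10.56 and 10.60 in the SA-H columns, a difference of -1.27. Btg2 was at 10.94, 10.80 and 10.54 and at 10.26, 9.98 and 10.12, a difference of -0.64. Both sources thus placed these genes lower, without overlap. The table describes the same samples and its columns depend on each other, so this match is not independent support. Gdf15 was at 6.80, 7.55 and 8.24 and at 8.53, 7.51 and 8.44, a difference of 0.63 with overlapping groups. Zmat3 (0.73) and Phlda3 (0.47) were higher without overlap there, which was not the case in the scanner files. Ccng1 (0.16) and Sesn2 (-0.50) had the opposite sign, and Mdm2 (0.02), Cdkn1a (0.14) and Aen (0.22) had the same sign. In all, 8 of the 10 genes had the same sign in both sources.

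**Figure D3:**
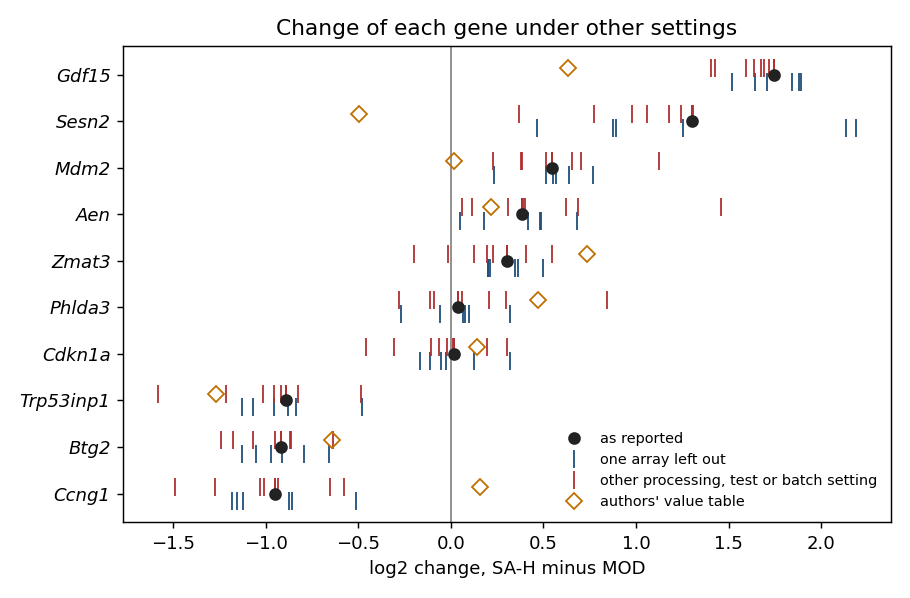
Log2 change of each p53-induced gene, SA-H minus MOD (x axis), as reported (dots), with 1 array left out (blue ticks), under other processing, test or batch settings (red ticks) and in the authors' value table (diamonds). Gdf15 stays between 0.63 and 1.89, Btg2 and Trp53inp1 stay below 0 in every setting, and Cdkn1a and Phlda3 lie on both sides of 0.

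Of 35 other p53-induced genes, 23 were tested. At that unadjusted limit 1 was higher (4.35% against 10.8% of all tested genes) and 2 were lower (8.70% against 12.5%). The other 20 did not pass, and the median change was -0.07. Ppm1d, the phosphatase Wip1 that switches p53 signaling off, was at 1.79, 1.25 and 1.77 in MOD and at -0.09, 0.02 and 0.11 in SA-H. The groups lay wide apart, with a change of -1.59 (standard error 0.25, adjusted p = 0.0762, limma), and the difference in the value table was -0.67. The thiamine transporter gene Slc19a2 was lower by the same test (-0.61, adjusted p = 0.198, limma), and its unadjusted p was above 0.05 in 10 of 22 other settings, among them those without MOD array 1 or 3 or SA-H array 5 or 6. Ephx1, a microsomal epoxide hydrolase, was the higher one (1.91, adjusted p = 0.163, limma), but its other tested probe gave -0.50, and its unadjusted p was above 0.05 without MOD array 1 or 2 or SA-H array 4 or 6. Among the genes that drive cell death, Bax had a change of 0.74 (adjusted p = 0.219, limma) with groups that did not overlap, and Bbc3 (0.35), Pmaip1 (0.49) and the death receptor gene Fas (-0.33) did not pass.

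Of 20 genes for p53 itself and its regulators, 17 were tested. Of these, 3 were higher (17.6% against 10.8% of all tested genes) and 1 was lower (5.88% against 12.5%). The other 13 did not pass, and the median was -0.23. The acetyltransferase gene Crebbp was at -0.45, -0.66 and -0.09 in MOD and at 2.74, 0.86 and 1.38 in SA-H, a change of 2.06 (standard error 0.48, adjusted p = 0.0933, limma). The checkpoint kinase gene Chek1 (1.97) had overlapping groups, and its unadjusted p was above 0.05 without MOD array 1 or 3 or SA-H array 4 or 5. Cdkn2a (0.61), whose product Arf inhibits Mdm2, was also higher, and the ubiquitin ligase gene Rchy1 (-0.58) was lower. The unadjusted p of Cdkn2a was above 0.05 in 5 of the 6 fits that left out 1 array, and that of Rchy1 in all 6. Trp53, the gene of p53, was well above background on 2 arrays only, and neither it nor Mdm4 was tested.

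The DREAM complex represses cell cycle genes when p21 is active, and a list of its subunits and target genes was set beside the p53-induced genes. All 21 were tested, and 8 were lower and 0 higher at an unadjusted p under 0.05 (38.1% against 12.5% of all tested genes), with a median of -0.56. The lower ones were the subunit genes Lin9 (-1.59), Rbl1 (-1.41) and Lin54 (-0.56) and the target genes Cdc25c (-1.36), Ccna2 (-1.09), Mcm5 (-1.03) and Ccnb1 (-0.97), with Plk1, whose change lay between those of Mcm5 and Ccnb1. A second probe of Rbl1 gave -0.09, and Cdc25c was bright enough on 1 SA-H array only. Changes above 0, none of which passed, were those of Aurkb (2.24), E2f4 (1.50), Cdk1 (0.10), Birc5 (0.08) and Cdc20 (0.02). The change of Aurkb was the largest of the list in size. The remaining genes had changes below 0 that did not pass. The lower count was 11 without SA-H array 4, 6 without MOD array 1 or 2, and 6 to 11 over all tests on the scanner files, and it was 17 in the authors' value table, whose columns are not independent. Some genes of the list passed as higher with median scaling (2), without MOD array 2 (2), with normexp (1) and without SA-H array 6 (1). The median was -0.48 and -0.40 within the scan days. Of the erythroid markers, 4 of 10 also passed as lower (40.0% against 12.5% of all tested genes). The median of those markers was -0.52, and their part in the change of the DREAM list was not tested. The gene of p21 itself, Cdkn1a, differed by 0.01 between the same arrays.

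**Figure D4:**
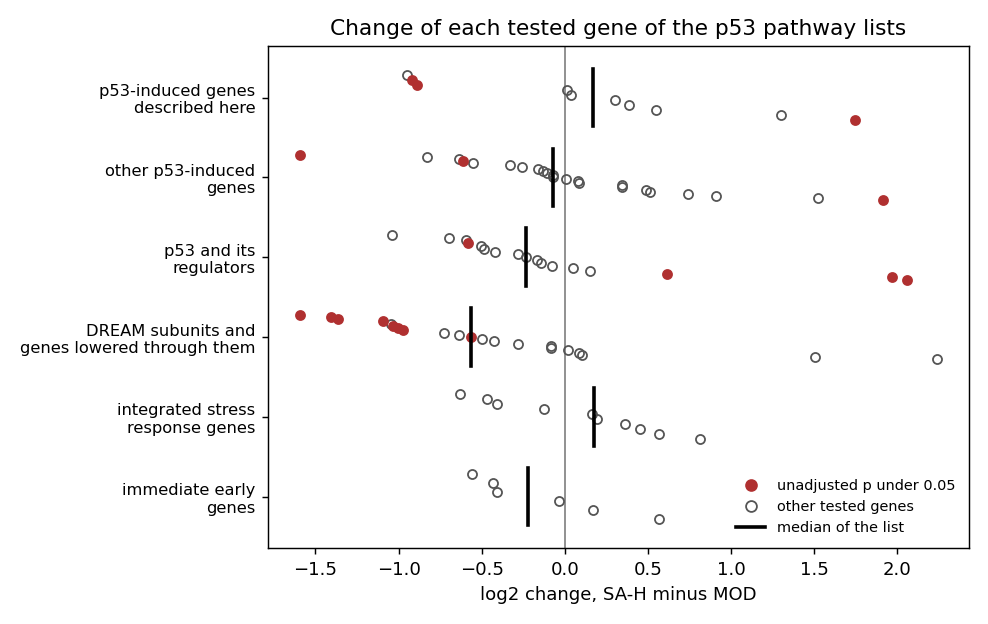
Log2 change, SA-H minus MOD (x axis), of each tested gene of 6 lists (rows), with filled red dots for an unadjusted p under 0.05 in limma and black bars for the median of each list. The median lies at 0.17 for the 10 p53-induced genes, -0.07 for other p53-induced genes and -0.56 for DREAM subunits and target genes, of which 8 of 21 pass as lower.

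Gdf15 and Sesn2 are also induced through Atf4, and Btg2 is also an immediate early gene, so both of those programs were set beside them. Of 12 genes of the integrated stress response, 10 were tested and 0 passed in either direction at an unadjusted p under 0.05 (limma), with a median of 0.18. The higher count was 4 when scan day was a block, 2 when slide scan was a random block and 2 without SA-H array 5. The smallest p in that list was that of Atf3, with a change of 0.57 (adjusted p = 0.218, limma). Of 12 immediate early genes, 6 were tested and 0 passed, with a median of -0.22. Apart from Atf3, which stands in both lists, Dusp1 had the smallest p there (-0.56, adjusted p = 0.235, limma).

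Markers of some cells moved with the groups. Beside the counts below, 10.8% of all tested genes were higher and 12.5% lower at an unadjusted p under 0.05 (limma). Of 6 tested fat markers 5 were lower, and their mean level was -0.07 to 0.43 on the MOD arrays and -2.59 to -1.25 on the SA-H arrays. Adipoq, Cidec and Car3 passed the filter through the MOD arrays alone, and Cfd was not bright on all 6 arrays either. The count of 5 and the mean levels therefore rest mostly on genes that were not bright on every array. Without a filter 8 fat markers were tested and again 5 were lower, with a median of -1.59. With only probes bright on all 6 arrays, 2 fat markers were tested, Fabp4 and Retn, and Fabp4 alone was lower. The median was then -0.51 in place of -2.42. Of 10 erythroid markers 4 were lower, with mean levels of 3.55 to 4.05 and 2.90 to 3.52. The ranges of the 2 groups overlapped for the markers of macrophages (8 tested, 1 higher, 1 lower), neutrophils (9 tested, 1 higher, 1 lower), B cells (9 tested, 1 higher) and T cells (10 tested, 0 passed). The lower macrophage marker, C1qa, and the higher B cell marker, Fcer2a, each passed the filter only through the group where it was high. With only probes bright on all 6 arrays, 0 macrophage markers were lower and 0 B cell markers were higher. The labels name spleen, while liver is also mentioned in their extraction text. Of 8 liver markers 3 were tested (1 higher, 1 lower). Their mean level was -0.104 to 0.625 on the MOD arrays and 0.695 to 1.097 on the SA-H arrays, without overlap. Tat was higher (1.93), Serpina1a was lower (-0.65), and Cyp2e1 (0.49) did not pass. The 3 genes thus did not move together, and Cyp2e1 passed the filter through the MOD arrays alone. Apoa1 and Ttr were not well above background on any array, nor was the fat marker Lep. The part of these cells in the changes of Gdf15, Btg2 and Trp53inp1 was not tested.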

How the data were processed

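The authors read each spot's intensity with Agilent Feature Extraction 11.0.1.1, which subtracts background, and the deposited intensities are not normalized between arrays. The authors' value table is on a log2 scale, and how it was made is not given in the sources used here. Here each array's log2 processed signal was centred on its 75th percentile, outlier spots were left out and spots of a probe averaged. Probes were named through RefSeq accessions (27234 of 39429). Probes entered the test if all 3 arrays of at least 1 group were well above background and all 6 had a value; the brightest of a gene's probes represented it. The demand for 6 values was added with results in view and matches an earlier count (14474 in place of 14829). The comparison used limma 3.58.1 under R 4.3.3 (Benjamini-Hochberg over all tested), a script checked on simulated data. The members and lists were chosen with earlier results of these data known. Named from each pathway list were up to 4 genes with the smallest p, with Trp53, Mdm4, Bax, Bbc3, Pmaip1 and Fas, and the 8 lower DREAM genes. Marker lists are given by counts, with the markers named on which a count or its limit rests. Normexp used spot medians in place of the spot means planned. The limit of 1 mismatch in a p53 element was chosen after 2 had also been tried (3.34% of windows). Figures were drawn with matplotlib 3.10.9.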

Additional observations from a re-analysis of the deposited data

How the results depend on the processing

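Over the 20 alternative settings with a test, 161 of 200 values of the 10 genes kept their direction and their side of an unadjusted p of 0.05, 14 passed newly, 10 no longer passed and 15 reversed; the cause was not tested. Within the scan days, where no test was made, 17 of 20 values kept their sign and 3 reversed. Of the settings with a test, Gdf15 failed to pass only in the value table (0.63), and Btg2 and Trp53inp1 were lower in all 22 settings. With 3 arrays a group, the number of arrays limits the precision.

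Among all genes, those with an adjusted p under 0.05 numbered 0, but 1094 with median scaling, 1 after quantile normalization, 210 with normexp, 1779 in the value table (whose columns are not independent), 1 with probes well above background on all arrays, 1075 when scan day was a block, and 0 to 22 with 1 array left out. Genes higher at an unadjusted p numbered 1006 with median scaling, 2358 in the value table, 2523 when scan day was a block and 906 to 1824 with 1 array left out, and lower ones 823 to 2091. Of the 10 genes, those higher numbered 2 after quantile normalization, 2 in the value table, 3 when scan day was a block and 1 to 2 with 1 array left out. Those lower numbered 1 after quantile normalization, without a filter and in the methods' ANOVA, and 0 to 3 with 1 array left out. An adjusted p under 0.05 was reached by 1 gene with normexp, 3 in the value table and 1 when scan day was a block. Their median was -0.15 with median scaling, 0.29 with normexp, 0.32 within the second scan day and 0.064 to 0.26 with 1 array left out.

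The sign reversed for Cdkn1a with median scaling (-0.31), quantile normalization (-0.10), the scan day (-0.021) or slide scan (-0.066) as a block, within the second scan day (-0.46) and without MOD array 1 (-0.03), MOD array 2 (-0.05), SA-H array 5 (-0.11) or SA-H array 6 (-0.16). It reversed for Zmat3 with median scaling (-0.017) and within the second scan day (-0.20), and for Phlda3 with median scaling (-0.28), normexp (-0.089), within the first scan day (-0.11) and without MOD array 2 (-0.06) or SA-H array 4 (-0.27). The second probe of Aen reversed with median scaling (-0.087), within the first scan day (-0.079) and without MOD array 2 or SA-H array 4 (-0.12 to 0.56 with 1 array left out). In the value table Ccng1 (0.16), Sesn2 (-0.50), Fas (0.31), Rchy1 (0.15), Atf3 (-0.17), Egr1 (0.42) and Egr2 (1.19) had the opposite sign.

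Chosen after seeing the data, 3 other forms of the filter tested 14829, 14842 and 14970 genes and left the calls of the 10 genes as they were, with Trp53inp1 just under and Ccng1 just above an unadjusted p of 0.05 in each. No paired analysis was possible because the groups share no replicate numbers.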
